A study of Mus musculus with 6 samples.

Results

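The 9 genes described here encode an insulin-like growth factor, its receptors and the proteins that bind it in the obstructed mouse kidney. They are Igf1, Igf1r, Igf2r, Igfbp2, Igfbp3, Igfbp4, Igfbp5, Igfbp6 and Igfbp7, taken by exact symbol from the 31276 genes of the deposited matrices. They were picked on their SH045 and Vehicle levels in fibroblasts, macrophages, endothelium and tubule, so the levels of both groups are given as a description, with no test. Cells came from kidneys of C57BL/6 mice 7 days after surgical obstruction of 1 ureter, from 3 animals given SH045 and 3 given Vehicle. All animals of both groups had the obstruction. The series title links SH045 to TRPC6, a cation channel that admits calcium, as its inhibitor; the dose, the composition of the vehicle and the age and sex of the animals are not given in the sources used here. Each library was made on Singleron GEXSCOPE beads, which tag every captured transcript with a unique molecular identifier (UMI), and 6000 cells were targeted per library.

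IGF1 is a secreted growth factor that signals through the tyrosine kinase IGF1R to PI3-kinase, AKT and mTOR and to the RAS pathway. IGF2R, also the cation-independent mannose-6-phosphate receptor, carries IGF2 and lysosomal enzymes into the cell. Binding proteins of the IGFBP family hold IGFs outside the cell, prolonging their life or keeping them from the receptor, and proteases such as PAPPA cut them and free the ligand. In the kidney, IGF1 is known for its effects on filtration and on tubule growth after injury.

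By the GENCODE annotation of mm10 (GRCm38), Igf1 (ENSMUSG00000020053) lies on chr10:87858265-87937042, plus strand. Igf1r (ENSMUSG00000005533) lies on chr7:67952827-68233668, plus strand, and Igf2r (ENSMUSG00000023830) on chr17:12682406-12769664, minus strand. Igfbp2 (ENSMUSG00000039323, chr1:72824503-72852474, plus strand) and Igfbp5 (ENSMUSG00000026185, chr1:72857932-72874884, minus strand) are tail-to-tail neighbours with 5457 bases between them. Igfbp3 (ENSMUSG00000020427, chr11:7206086-7213923, minus strand) and Igfbp4 (ENSMUSG00000017493, chr11:99041244-99054392, plus strand) share a chromosome. Igfbp6 (ENSMUSG00000023046) lies on chr15:102144362-102149511, plus strand, and Igfbp7 (ENSMUSG00000036256) on chr5:77349240-77408041, minus strand. The longest annotated transcript has 7052 bases for Igf1, 11409 for Igf1r, 8887 for Igf2r and 6006 for Igfbp5, against 1307 for Igfbp2, 1112 for Igfbp6 and 1200 for Igfbp7.

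All 9 genes had an entry in the RefSeq promoter table (GRCm38.p6), which holds 250 bases before to 50 bases after a transcript start. The windows of Igf1, Igfbp2 and Igfbp7 are shown because the results turn on fibroblast Igf1, tubule Igfbp2 and Igfbp7 in fibroblasts and principal cells. They stand 5′ to 3′ on the strand of the gene, with capitals on matches to motifs searched on both strands. The motifs were the TATA box (TATAAA), the GC box of Sp-type factors (GGGCGG), the E-box of basic helix-loop-helix factors (CACGTG), the forkhead site of FOXO and related factors (TGTTTAC), the STAT site of cytokine signalling (TTCNNNGAA) and the AP-1 site of FOS and JUN factors (TGANTCA).
Igf1, chr10:87860861-87861160, plus strand: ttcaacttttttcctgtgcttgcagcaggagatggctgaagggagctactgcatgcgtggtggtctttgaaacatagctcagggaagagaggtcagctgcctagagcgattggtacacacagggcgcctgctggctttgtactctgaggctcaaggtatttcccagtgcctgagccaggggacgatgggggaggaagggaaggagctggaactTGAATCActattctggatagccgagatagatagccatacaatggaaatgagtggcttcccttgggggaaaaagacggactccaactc
Igfbp2, chr1:72824230-72824529, plus strand: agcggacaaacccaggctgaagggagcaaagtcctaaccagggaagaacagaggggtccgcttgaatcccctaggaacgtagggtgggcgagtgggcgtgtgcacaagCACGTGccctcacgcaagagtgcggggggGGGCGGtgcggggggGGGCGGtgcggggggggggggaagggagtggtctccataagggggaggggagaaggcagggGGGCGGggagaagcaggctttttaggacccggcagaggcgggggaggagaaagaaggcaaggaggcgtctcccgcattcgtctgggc
Igfbp7, chr5:77407996-77408295, minus strand: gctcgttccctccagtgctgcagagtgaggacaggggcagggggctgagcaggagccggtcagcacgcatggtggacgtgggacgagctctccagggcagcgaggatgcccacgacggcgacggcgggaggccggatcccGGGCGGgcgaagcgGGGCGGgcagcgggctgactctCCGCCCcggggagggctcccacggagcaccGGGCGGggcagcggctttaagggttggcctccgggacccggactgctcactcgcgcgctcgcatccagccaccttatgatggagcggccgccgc
The Igf1 window held 1 AP-1 match, at -37 from the start, and the start itself lies inside the GENCODE gene model. The Igfbp2 window held 3 GC boxes, at -113, -98 and -37, and an E-box at -142. The table holds a second Igfbp2 window further along, chr1:72825137-72825436, with an AP-1 match at -39 and 0 GC boxes or E-boxes. The Igfbp7 window held 4 GC boxes, at -110, -96, -74 and -44, and had a GC content of 73.3%, against 67.0% for Igfbp2 and 52.3% for Igf1. Over all 32851 promoter windows, 35.7% held a GC box, 7.15% an E-box and 7.81% an AP-1 match. A match is a run of letters, not a measured binding site.

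Totals per library ranged from 21186872 to 32256602 UMIs, and 22400 of 25978 barcodes were kept. Barcodes with over 50% mitochondrial UMIs, which were left out, made up 10.3, 10.4 and 16.5% with SH045, against 4.17, 5.29 and 3.56% with Vehicle. The libraries shared 209 barcode sequences. Markers named 18 cell classes, and fibroblasts were few: 120, 148 and 88 cells with SH045, against 25, 20 and 30 with Vehicle. Endothelial cells numbered 103, 87 and 106 with SH045, against 32, 37 and 29 with Vehicle. In fibroblasts the summed level of the 7 fibroblast markers was 44780, 46230 and 27340 CPM (counts per total of 1000000 UMIs in the class and library) with SH045, against 22580, 23480 and 26220 CPM with Vehicle, and macrophage markers reached 1748 CPM in Vehicle 1, against 131 CPM at most in the SH045 libraries. In all 6 tested classes, longer transcripts had higher log2 changes, with Spearman correlations across genes, which are not independent replicates, from 0.216 in fibroblasts to 0.495 in macrophages. A value with that trend removed is given beside each of the 10 member values it moved by more than 1 SE, and beside some others; its part in the results was not tested.

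Levels below are CPM of the summed UMIs of a class in a library, and log2 changes are SH045 over Vehicle from edgeR, with their SE. Of 54 pairs of a member and a tested class, 38 passed the low-count filter. The log2 change was above 0 in 4 of 8 members fitted in fibroblasts, 5 of 7 in endothelium, 3 of 6 in macrophages, 5 of 7 in injured tubule, 5 of 5 in proximal tubule and 3 of 5 in principal cells. The members were picked on this contrast, so these counts are read no further. Orders of levels are over the 13 named classes with at least 10 cells in every library; counts of classes in which the groups were apart add 3 unnamed clusters of that size. B cells, plasma cells, plasmacytoid dendritic cells, erythroid cells and urothelial cells fell short of it.

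**Figure D1:**
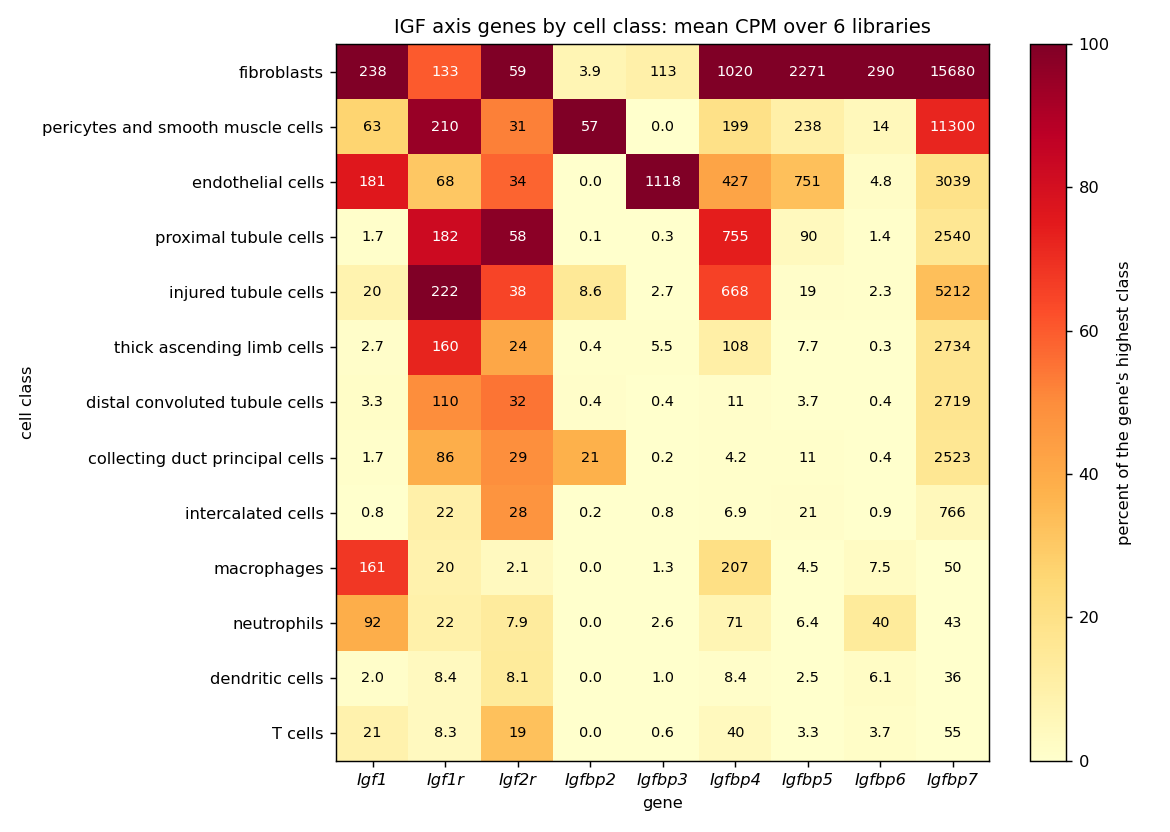
Mean level of the 9 genes in 13 cell classes. Each cell prints the mean CPM over the 6 libraries, and its colour gives that mean as a percent of the highest class of the same gene; Igfbp3 is concentrated in endothelium, and Igfbp7 averages 15680 CPM in fibroblasts and 11300 CPM in pericytes and smooth muscle cells.

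Igf1, the ligand, came from stromal and myeloid cells and was higher with SH045 in fibroblasts but not in macrophages. Fibroblasts averaged 238 ± 224 CPM, endothelium 181 ± 127 CPM and macrophages 161 ± 11.4 CPM over the 6 libraries (SD, n = 6). Over both groups together these 3 neighbours did not differ beyond their spread, but that spread includes the group difference. Fibroblasts lay above macrophages in every SH045 library and below them in every Vehicle library. Of the other classes of that size, neutrophils (92.05 ± 48.7 CPM) and pericytes and smooth muscle cells (63.0 ± 58.65 CPM) came next and overlapped each other. B cells, with 3 cells in 1 library, averaged 106.5 ± 183 CPM from 11 UMIs. Injured tubule averaged 20.4 CPM and every other tubule class at most 3.345 CPM.

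Fibroblasts had 464, 560 and 222 CPM of Igf1 in SH045 1, 2 and 3, against 84.6, 35.0 and 60.3 CPM in Vehicle 1, 2 and 3. Every SH045 library lay above every Vehicle library, a separation seen upward in 8.23% of the fibroblast genes with at least 60 UMIs. The means were 415 ± 174 CPM with SH045 and 59.95 ± 24.8 CPM with Vehicle (SD, n = 3 each), and the fitted log2 change was 2.86 ± 0.41, or 2.58 ± 0.43 with the length trend removed. The sums behind these levels were 1049 UMIs with SH045 and 29 UMIs with Vehicle. Leaving out 1 library gave log2 changes from 2.56 to 3.19. A UMI of Igf1 was seen in 139 of 356 SH045 fibroblasts and in 13 of 75 Vehicle fibroblasts, or 27.5, 56.1 and 26.1% of the cells by library with SH045, against 12, 20 and 20% with Vehicle, at median depths of 5566 and 5949 UMIs. Principal cells, where Igf1 averaged 1.74 CPM, had a UMI of it in 11 of 1235 cells (0.891%) at 6943 UMIs. Thinned to 2000 UMIs per cell, the fibroblast shares were 27.3% with SH045 and 4.0% with Vehicle.

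Part of the fibroblasts carried transcripts of adventitial cells, the outer sheath of vessels, and that list moved with Igf1. The summed level of its 6 genes in fibroblasts was 2076, 2722 and 407 CPM with SH045, against 204, 238 and 131 CPM with Vehicle, and 0 of the 6 genes were at 0. The share of fibroblasts with a UMI of the list overlapped, at 49.2, 64.9 and 28.4% with SH045, against 48.0, 45.0 and 33.3% with Vehicle. Such a UMI need not mark an adventitial cell. Ly6c1, on the list, was also among the top genes of the distal convoluted tubule cluster. Fibroblasts without a UMI of these genes had 193, 529 and 207 CPM of Igf1 with SH045, against 114, 63.2 and 15.1 CPM with Vehicle. These Vehicle levels rest on 8, 5 and 2 UMIs in 13, 11 and 20 cells, too few to order the libraries firmly. Fibroblasts with such a UMI had 600, 575 and 252 CPM with SH045, against 55.6, 0.0 and 150 CPM with Vehicle, where 12, 9 and 10 cells held 4, 0 and 10 UMIs of Igf1. The part of the adventitial cells in the Igf1 difference was not tested further.

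In macrophages Igf1 overlapped between the groups. They had 153, 165 and 169 CPM with SH045, against 169, 167 and 141 CPM with Vehicle, and a UMI was seen in 976 of 3627 SH045 cells and 1078 of 4083 Vehicle cells. The log2 change was -0.12 ± 0.13, and -0.41 ± 0.14 with the length trend removed. Igf1 helps to define macrophage cluster 4, which also carried Stab1, F13a1, Pf4 and Mrc1, transcripts known from tissue-resident and scavenging macrophages. That cluster had 533, 406 and 419 CPM with SH045, against 519, 441 and 422 CPM with Vehicle, so its high level was shared by both groups. In the largest other macrophage clusters the SH045 libraries had between 47.7 and 175 CPM and the Vehicle libraries between 67.0 and 191 CPM.

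**Figure D2:**
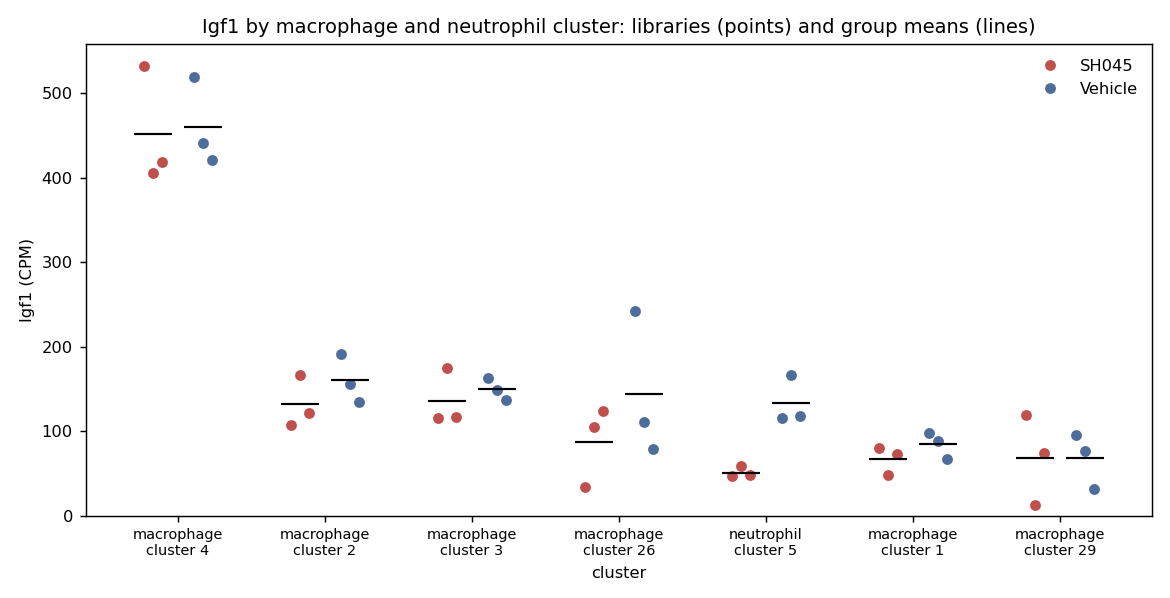
Igf1 level in CPM in 6 macrophage clusters and the neutrophil cluster, with a point per library and a line at the group mean. Cluster 4 lies above 400 CPM in all 6 libraries, and the neutrophil cluster is the one in which the SH045 libraries (46.4 to 59.1 CPM) all lie below the Vehicle libraries (115 to 166 CPM).

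The cluster named neutrophils, led by S100a8 and S100a9, had 46.4, 59.1 and 47.6 CPM of Igf1 with SH045, against 115, 166 and 118 CPM with Vehicle, from 69 and 242 UMIs. All SH045 libraries lay below all Vehicle libraries, as did 6.11% of the neutrophil genes with at least 60 UMIs. The summed neutrophil markers of these cells were 17140, 23240 and 4503 CPM with SH045, against 4882, 1124 and 1671 CPM with Vehicle, and their macrophage markers were 7768, 10180 and 10330 CPM with SH045, against 11860, 14860 and 11110 CPM with Vehicle. In all Vehicle libraries and in SH045 3 the macrophage markers exceeded the neutrophil markers, so the cluster is not shown to be 1 cell type. The part of these marker levels in the Igf1 difference was not tested.

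Endothelium had 401, 182 and 176 CPM of Igf1 with SH045, against 70.5, 45.3 and 210.5 CPM with Vehicle. Vehicle 3 lay above SH045 2 and 3, so the groups overlapped (log2 change 1.19 ± 0.64, or 2.13 without Vehicle 3). Pericytes and smooth muscle cells had 122, 55.7 and 149 CPM with SH045, against 13.6, 15.2 and 22.8 CPM with Vehicle, from 42 and 6 UMIs. Adipocyte markers summed to 16480 CPM in those cells of SH045 3 and to 0 in the other libraries.

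The cells that supplied the Igf1 transcripts differed by library. Macrophages held 64.3% of all Igf1 UMIs and fibroblasts 15.8%. Fibroblasts held 32.9, 36.9 and 11.2% with SH045, against 1.41, 0.478 and 1.11% with Vehicle. Macrophages held 37.2, 48.7 and 74.9% with SH045, against 84.3, 71.6 and 79.1% with Vehicle. Summed over all cells, Igf1 was at 64.97, 64.6 and 71.2 CPM with SH045, against 45.7, 35.8 and 43.8 CPM with Vehicle; such a sum cannot tell more cells of a type from more RNA per cell.

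**Figure D3:**
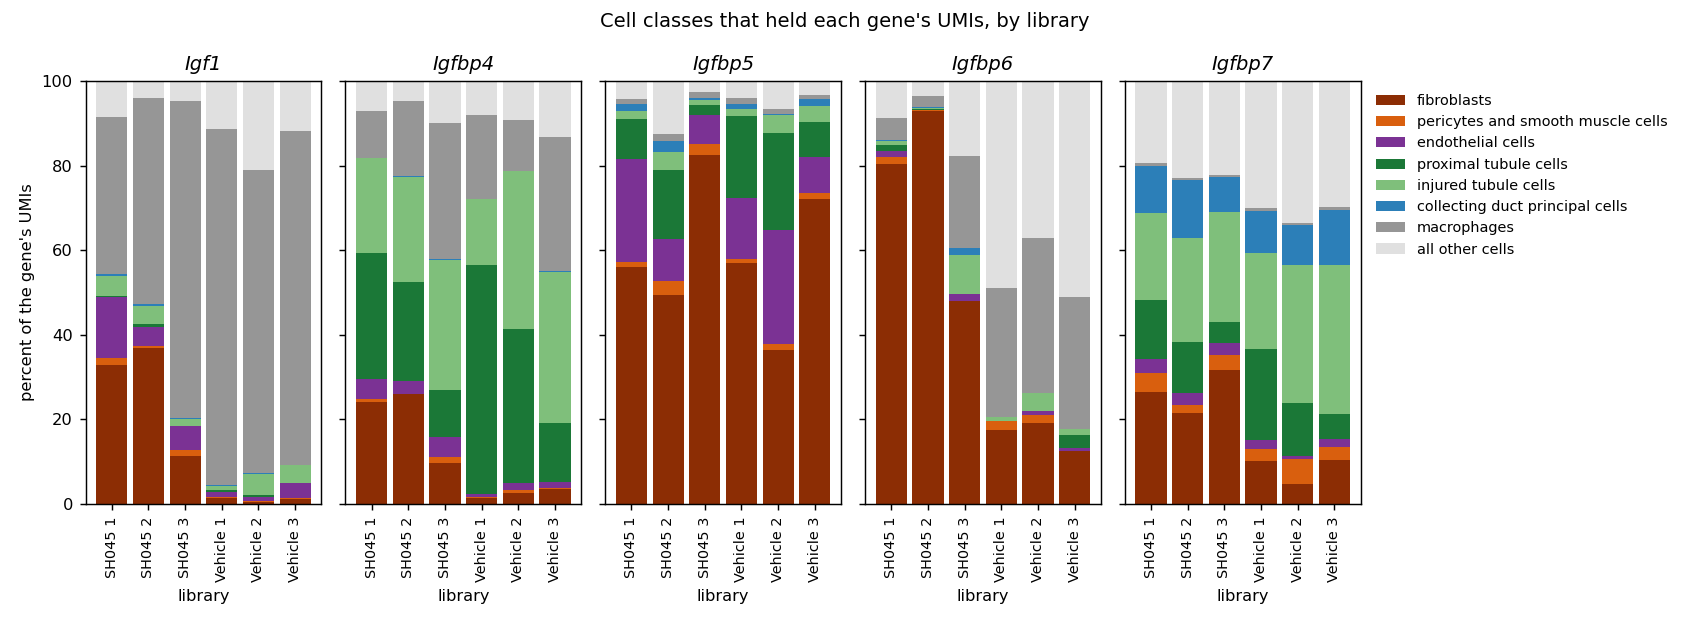
Percent of the UMIs of Igf1, Igfbp4, Igfbp5, Igfbp6 and Igfbp7 that came from each cell class, as a stacked bar per library. Fibroblasts supply 11.2 to 36.9% of Igf1 UMIs in SH045 libraries and at most 1.41% in Vehicle libraries.

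Igf1r, the receptor that carries the IGF1 signal, was spread over tubule and stroma and was higher with SH045 in most tubule classes. Injured tubule averaged 222 ± 73.05 CPM, pericytes and smooth muscle cells 210.3 ± 59.0 CPM, proximal tubule 182 ± 51.4 CPM, thick ascending limb 160.4 ± 58.96 CPM and fibroblasts 133 ± 27.4 CPM (SD, n = 6), each within the spread of the next. Injured tubule cells, marked by Havcr1 and Vcam1, had 287, 235 and 326 CPM with SH045, against 158, 157 and 166 CPM with Vehicle. No Vehicle library reached any SH045 library, as for 18.3% of the genes of that class with at least 60 UMIs. The means were 283 ± 46.0 CPM and 160.5 ± 4.96 CPM (SD, n = 3 each), the log2 change was 0.74 ± 0.13, and with the length trend removed it was 0.36 ± 0.12. The decile of genes with the longest transcripts, which includes Igf1r, had a median log2 change of 0.36 in this class.

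Proximal tubule had 241, 169 and 251 CPM of Igf1r with SH045, against 131, 159 and 142 CPM with Vehicle. Thick ascending limb had 258, 159 and 185 CPM with SH045, against 80.9, 135 and 145 CPM with Vehicle. Principal cells had 127, 83.1 and 96.6 CPM with SH045, against 51.4, 75.3 and 82.7 CPM with Vehicle. In these 3 classes all SH045 libraries lay above all Vehicle libraries, as did 9.97% of proximal tubule, 13.9% of thick ascending limb and 13.8% of principal cell genes with at least 60 UMIs. In principal cells the nearest libraries stood at 83.1 CPM with SH045 and 82.7 CPM with Vehicle, and the log2 change was 0.48 ± 0.18, or 0.16 ± 0.15 with the length trend removed.

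Macrophages carried little Igf1r, at 31.9, 20.9 and 26.6 CPM with SH045, against 12.3, 13.3 and 14.4 CPM with Vehicle. A UMI was seen in 252 of 3627 SH045 macrophages (6.95%) and 163 of 4083 Vehicle macrophages (3.99%). The groups did not overlap, upward as in 25.9% of macrophage genes with at least 60 UMIs, and the log2 change was 0.81 ± 0.18, or 0.43 ± 0.16 with the length trend removed. T cells, at a similar depth, had a UMI in 32 of 700 SH045 cells (4.57%) and 7 of 453 Vehicle cells (1.55%). In fibroblasts, where the ligand was higher, the receptor overlapped between groups, at 140, 91.2 and 133 CPM with SH045, against 113, 161 and 161 CPM with Vehicle (log2 change -0.22 ± 0.27, and -0.55 ± 0.25 with the length trend removed). Over 14 classes and unnamed clusters with at least 60 UMIs, Igf1r was higher in every SH045 library in 7 and lower in every SH045 library in 0; over all 16 together, 13.9% of all genes at that depth were apart upward and 7.61% downward.

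**Figure D4:**
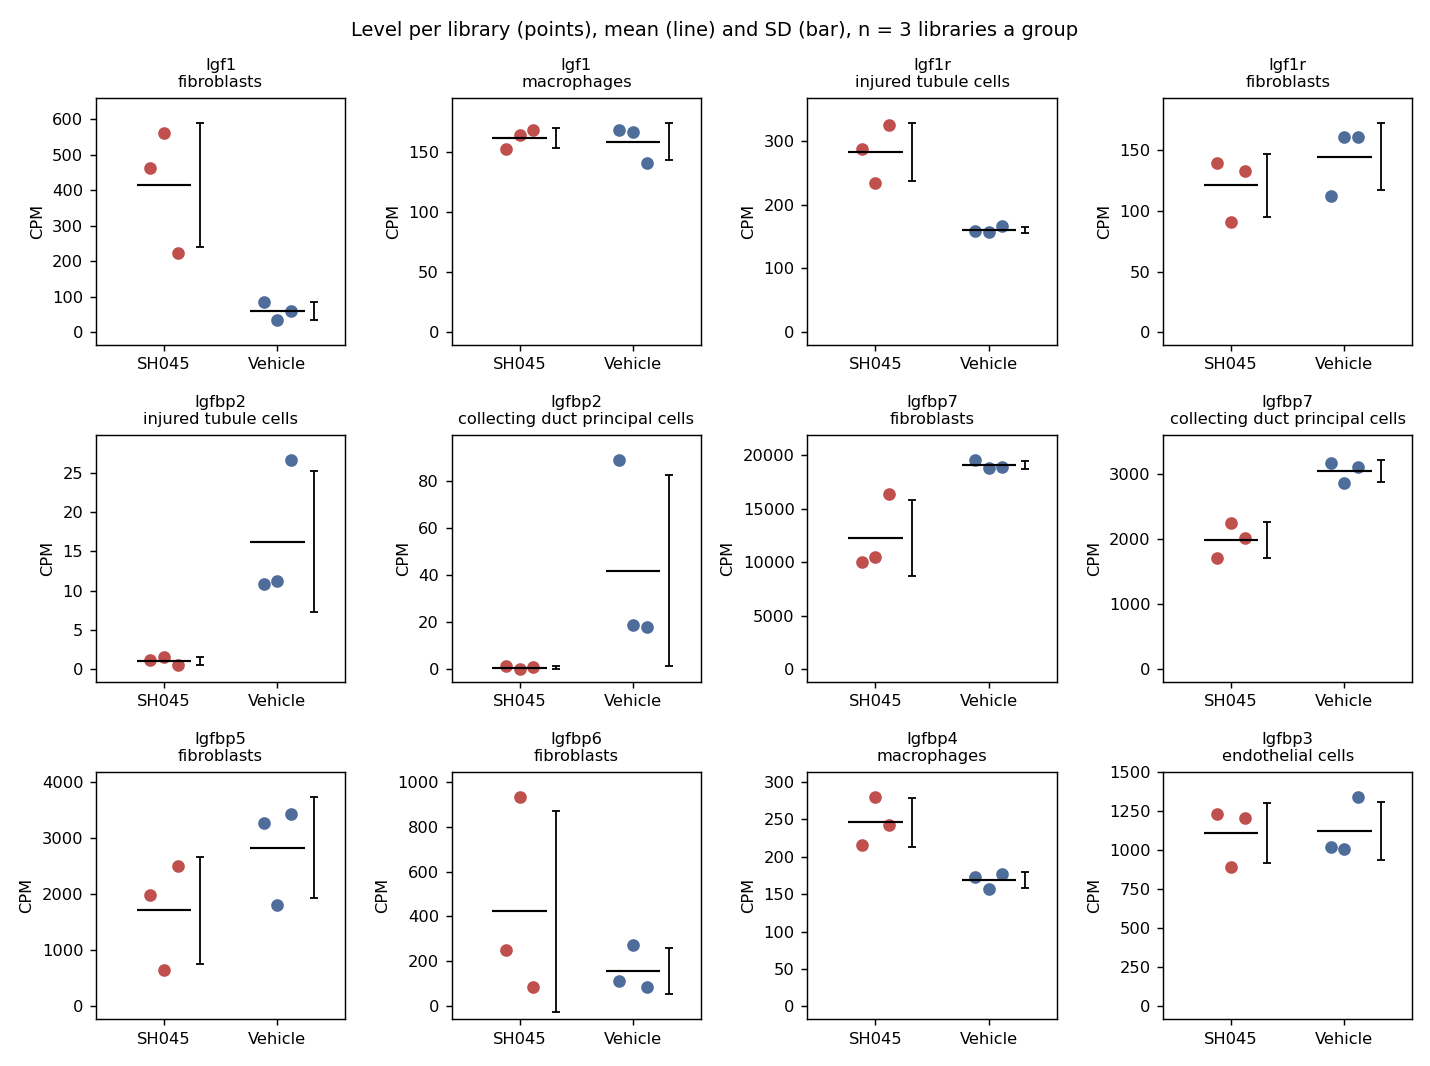
Levels in CPM of 8 of the 9 genes in 12 pairs of gene and cell class, with a point per library, a bar at the mean and the SD (n = 3 each), SH045 on the left. Igf1 in fibroblasts and Igf1r in injured tubule lie higher in all SH045 libraries, Igfbp2 and Igfbp7 lower in the classes shown, and Igf1 in macrophages, Igfbp5 in fibroblasts and Igfbp3 in endothelium overlap.

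Igf2r, the scavenger receptor for IGF2, averaged 58.95 ± 24.7 CPM in fibroblasts and 57.5 ± 6.68 CPM in proximal tubule, the highest of the 13 classes, which did not differ beyond their spread. Urothelial cells, with 5 or fewer cells in 2 libraries, averaged 70.7 ± 68.2 CPM. Fibroblasts had 92.8, 84.6 and 53.95 CPM with SH045, against 28.2, 49.0 and 45.2 CPM with Vehicle. The groups did not overlap, upward as in 8.23% of fibroblast genes with at least 60 UMIs. The log2 change was 0.97 ± 0.38, or 0.67 ± 0.37 with the length trend removed. Intercalated cells, the acid-base cells of the collecting duct, had 37.1, 40.1 and 39.5 CPM with SH045, against 9.46, 21.9 and 20.3 CPM with Vehicle. All SH045 libraries lay above all Vehicle libraries there, as did 13.6% of intercalated cell genes with at least 60 UMIs. In injured tubule the groups overlapped, at 49.8, 44.8 and 31.6 CPM with SH045, against 29.0, 33.7 and 39.6 CPM with Vehicle, and the log2 change of 0.20 ± 0.20 became -0.13 ± 0.19 with the length trend removed. In principal cells the log2 change was 0.47 ± 0.25, or 0.19 ± 0.23 with the trend removed. Over 12 classes and unnamed clusters with at least 60 UMIs, Igf2r was higher in every SH045 library in 5 and lower in every SH045 library in 0. Over all 16 together, 13.9% of all genes at that depth were apart upward and 7.61% downward.

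Igfbp2, a binding protein that is secreted and can hold both IGFs, was close to 0 in injured tubule and principal cells with SH045 and was seen in both with Vehicle. Injured tubule had 1.19, 1.50 and 0.50 CPM with SH045, against 10.8, 11.2 and 26.6 CPM with Vehicle, from 6 and 101 UMIs. The groups did not overlap, downward as in 9.51% of the genes of the class with at least 60 UMIs. The log2 change was -3.96 ± 0.54 and stayed at -3.74 ± 0.56 with the length trend removed. A UMI was seen in 4 of 705 SH045 cells (0.567%) and 19 of 614 Vehicle cells (3.09%), at median depths of 5816 and 7380 UMIs. Thinned to 2000 UMIs the shares were 0.142% and 2.28%, and 10 cells held 80.2% of the Vehicle UMIs.

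Principal cells had 1.40, 0.0 and 0.74 CPM of Igfbp2 with SH045, against 88.8, 18.7 and 18.0 CPM with Vehicle, from 4 and 137 UMIs. A UMI was seen in 2 of 765 SH045 cells (0.261%) and 21 of 470 Vehicle cells (4.47%), at median depths of 6641 and 7364 UMIs, and 10 cells held 84.7% of the Vehicle UMIs, with 39 UMIs in 1 cell. All SH045 libraries lay below all Vehicle libraries, as did 11.8% of principal cell genes with at least 60 UMIs. Vehicle 1 alone held 76 of the 137 Vehicle UMIs. The log2 change was -5.75 ± 1.31, and leaving out 1 library gave -6.85 to -4.70. Macrophages had 1 UMI in 7710 cells, at a median depth of 3354 UMIs.

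The tubule direction of Igfbp2 was not shared by stroma and urothelium. Fibroblasts had 3.52, 4.39 and 15.4 CPM with SH045 and 0 in every Vehicle library, from 8 of 356 and 0 of 75 cells, where a count of 0 leaves room for 4.0% of cells holding a UMI. Urothelial cells, the lining of the renal pelvis, had 233, 0.0 and 295 CPM with SH045, against 0.0, 0.0 and 22.6 CPM with Vehicle, in 12 of 38 and 2 of 41 cells. Pericytes and smooth muscle cells overlapped, at 81.3, 112 and 0.0 CPM with SH045, against 27.2, 40.6 and 79.7 CPM with Vehicle. Summed over all cells, Igfbp2 overlapped too, at 3.20, 0.84 and 3.495 CPM with SH045, against 4.89, 2.73 and 4.02 CPM with Vehicle.

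Igfbp3, the main carrier of IGFs in blood, was an endothelial transcript here, with 80.0% of its UMIs in endothelium, and it is among the genes that define that cluster. Endothelial cells had 1232, 892 and 1210 CPM with SH045, against 1023, 1011 and 1340 CPM with Vehicle. The groups overlapped, at means of 1111 ± 190 CPM and 1125 ± 187 CPM (SD, n = 3 each) and a log2 change of -0.05 ± 0.20. Of 394 endothelial cells, 239 had a UMI of Igfbp3, 99 had one of Igfbp5, 72 had both and 128 neither. Fibroblasts had 77.5, 150.5 and 108 CPM with SH045, against 7.05, 42.0 and 291.5 CPM with Vehicle, where Vehicle 3 alone exceeded the SH045 libraries; without it the log2 change was 2.23 ± 0.59, in place of -0.07 ± 0.98. Pericytes and smooth muscle cells had 0 UMIs in 104 cells.

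Igfbp4, a binding protein that restrains IGF1 until PAPPA cuts it, was highest in fibroblasts (1020 ± 594 CPM), proximal tubule (755 ± 103 CPM) and injured tubule (668 ± 124 CPM), which overlapped. Within every library proximal tubule was above injured tubule. Macrophages had 215, 279 and 243 CPM with SH045, against 172, 156 and 177 CPM with Vehicle, and endothelium had 591, 595 and 484 CPM with SH045, against 183, 431 and 277 CPM with Vehicle. In both classes all SH045 libraries lay above all Vehicle libraries. So did 25.9% of macrophage and 9.91% of endothelial genes with at least 60 UMIs. The log2 changes were 0.39 ± 0.14 in macrophages and 0.85 ± 0.24 in endothelium. Macrophage cluster 4, the Igf1-rich one, also held more Igfbp4 than the macrophages as a whole, at 478, 527 and 468 CPM with SH045, against 410, 291 and 334 CPM with Vehicle. Proximal tubule was apart as well, at 855, 812 and 843 CPM with SH045, against 651, 760 and 608 CPM with Vehicle. There 9.97% of genes with at least 60 UMIs were apart upward. In fibroblasts the groups overlapped, at 1610, 1840 and 635 CPM with SH045, against 366, 1064 and 608 CPM with Vehicle, and the cells with an adventitial UMI were the higher in every library.

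Igfbp5, a binding protein that attaches to extracellular matrix, had 61.3% of its UMIs in fibroblasts. Fibroblasts had 1983, 656 and 2502 CPM with SH045, against 3263, 1798 and 3422 CPM with Vehicle, and the groups overlapped (log2 change -0.68 ± 0.50). The share of fibroblasts with a UMI was 43.3% with SH045 (154 of 356) and 69.3% with Vehicle (52 of 75). In SH045 libraries, fibroblasts with an adventitial UMI had 1082, 299 and 2182 CPM and those without had 3773, 1430 and 2659 CPM, a direction opposite to that of Igfbp4. Vehicle libraries had 4977, 1051 and 2358 CPM with such a UMI and 1500, 2400 and 3957 CPM without, so the direction was mixed there.

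Of 8 classes with at least 60 UMIs of Igfbp5, all SH045 libraries lay above all Vehicle libraries in 3, intercalated cells, pericytes and smooth muscle cells, and macrophages, and the groups overlapped in 5. Intercalated cells had 31.9, 46.6 and 29.6 CPM with SH045, against 5.67, 9.33 and 5.41 CPM with Vehicle, from 205 and 34 UMIs. Pericytes and smooth muscle cells had 257, 435 and 415 CPM with SH045, against 109, 50.7 and 160 CPM with Vehicle. Both classes were without overlap. The pericyte and smooth muscle levels rest on 14 to 22 cells per library, and SH045 3 held the adipocyte markers given above with Igf1. The part of those markers was not tested. With at least 60 UMIs, 13.6% of intercalated cell genes and 4.35% of pericyte and smooth muscle genes were apart upward. In macrophages 25.9% of genes at that depth were. Macrophages had 10.97, 5.15 and 4.57 CPM with SH045, against 2.83, 2.00 and 1.49 CPM with Vehicle, in 66 of 3627 cells (1.82%) and 29 of 4083 cells (0.71%). T cells had a UMI in 14 of 700 SH045 cells (2.00%) and 1 of 453 Vehicle cells (0.221%). Median depths were 3214 and 3735 UMIs in T cells, against 3197 and 3454 UMIs in macrophages. The macrophage share lay below that of T cells with SH045 and above it with Vehicle. Summed over all cells, Igfbp5 averaged 109.7 CPM with SH045 and 35.4 CPM with Vehicle, a ratio of 3.10, beside a ratio of 3.27 in macrophages. The part of free RNA in the difference was not tested. Endothelium overlapped, at 1693, 344 and 325 CPM with SH045, against 832, 861 and 449 CPM with Vehicle; without SH045 1 its log2 change was -1.10 ± 0.27, in place of 0.09 ± 0.83.

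Igfbp6, which prefers IGF2 over IGF1, was highest in the fibroblasts that carried adventitial transcripts. Fibroblasts had 251, 930 and 87.9 CPM with SH045, against 113, 273 and 85.4 CPM with Vehicle, and the groups overlapped. SH045 2 stood far above the rest: the log2 change was 1.55 ± 1.15, and 0.20 ± 0.64 without it. Cells with an adventitial UMI had 346, 1326 and 219 CPM with SH045, against 167, 455 and 165 CPM with Vehicle, and cells without had 23.0 to 73.1 CPM with SH045, against 45.3 to 126 CPM with Vehicle. Macrophages had 4.799, 5.64 and 4.57 CPM with SH045, against 6.60, 16.7 and 6.95 CPM with Vehicle, without overlap, downward as in 6.56% of macrophage genes with at least 60 UMIs. The share of macrophages holding a UMI was 1.38% with SH045 and 2.42% with Vehicle, beside T cell shares of 0.571% with SH045 and 1.99% with Vehicle. Fibroblasts supplied 80.5, 93.0 and 47.9% of Igfbp6 UMIs with SH045, against 17.4, 19.0 and 12.6% with Vehicle.

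Igfbp7, a secreted protein that binds IGFs weakly and is used as a urinary marker of tubule stress, was found in all tubule and stromal classes and was lower with SH045 in fibroblasts, pericytes and most of the distal nephron. Fibroblasts averaged 15680 ± 4355 CPM and pericytes and smooth muscle cells 11300 ± 2698 CPM, followed by injured tubule at 5212 ± 928 CPM (SD, n = 6). The ranges of fibroblasts and of pericytes and smooth muscle cells overlapped, but fibroblasts were the higher within every library. Fibroblasts had 10030, 10450 and 16350 CPM with SH045, against 19550, 18790 and 18920 CPM with Vehicle. The groups did not overlap, downward as in 7.86% of fibroblast genes with at least 60 UMIs, with means of 12280 ± 3531 CPM and 19090 ± 405 CPM (SD, n = 3 each) and a log2 change of -0.59 ± 0.19. Fibroblasts without an adventitial UMI had 14930, 17300 and 17090 CPM with SH045, against 20020, 20210 and 17810 CPM with Vehicle, still without overlap but closer together. Those with such a UMI had 7569, 7289 and 14850 CPM with SH045, against 19090, 17040 and 21110 CPM with Vehicle.

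Principal cells had 1705, 2250 and 2021 CPM of Igfbp7 with SH045, against 3181, 2867 and 3112 CPM with Vehicle. All SH045 libraries lay below all Vehicle libraries, as did 11.8% of principal cell genes with at least 60 UMIs. The means were 1992 ± 274 CPM and 3054 ± 165 CPM (SD, n = 3 each). The log2 change was -0.64 ± 0.16, or -0.42 ± 0.13 with the length trend removed. The summed principal cell markers were 8239, 11200 and 8503 CPM with SH045, against 7778, 4190 and 5078 CPM with Vehicle, and injured tubule markers in these cells were 4305, 3897 and 4130 CPM with SH045, against 5038, 5217 and 5457 CPM with Vehicle. The part of these markers in the result was not tested.

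Distal convoluted tubule had 1844, 2494 and 2020 CPM of Igfbp7 with SH045, against 3558, 3061 and 3333 CPM with Vehicle, and thick ascending limb had 1962, 2299 and 2608 CPM with SH045, against 3014, 2982 and 3541 CPM with Vehicle. Neither overlapped, downward as in 7.94% of distal convoluted tubule and 5.31% of thick ascending limb genes with at least 60 UMIs. Pericytes and smooth muscle cells were apart too, as 9.76% of their genes were downward, at 9853, 9073 and 9288 CPM with SH045, against 10970, 16190 and 12440 CPM with Vehicle. In that class SH045 3 held the adipocyte markers given above with Igf1, and their part was not tested. Injured tubule overlapped, at 3933, 5396 and 4383 CPM with SH045, against 5162, 6219 and 6179 CPM with Vehicle (log2 change -0.43 ± 0.15, or -0.20 ± 0.14 with the length trend removed). Intercalated cells overlapped as well, at 625, 832 and 577 CPM with SH045, against 889, 893 and 779 CPM with Vehicle. In macrophages the log2 change was -0.14 ± 0.17, or 0.09 ± 0.17 with the length trend removed. Proximal tubule overlapped in part, with SH045 2 and 3 above all Vehicle libraries, at 2296, 2884 and 2863 CPM with SH045, against 1948, 2517 and 2731 CPM with Vehicle. Urothelial cells, outside the count for their few cells, had 1384, 112 and 902 CPM with SH045, against 1711, 1799 and 2391 CPM with Vehicle. Over 16 classes and unnamed clusters with at least 60 UMIs, Igfbp7 was lower in every SH045 library in 5 and higher in every SH045 library in 0. Over all 16 together, 7.61% of all genes at that depth were apart downward and 13.9% upward. By contrast, all cells summed gave 1751, 2066 and 1862 CPM with SH045, against 1477, 1910 and 1470 CPM with Vehicle.

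**Figure D5:**
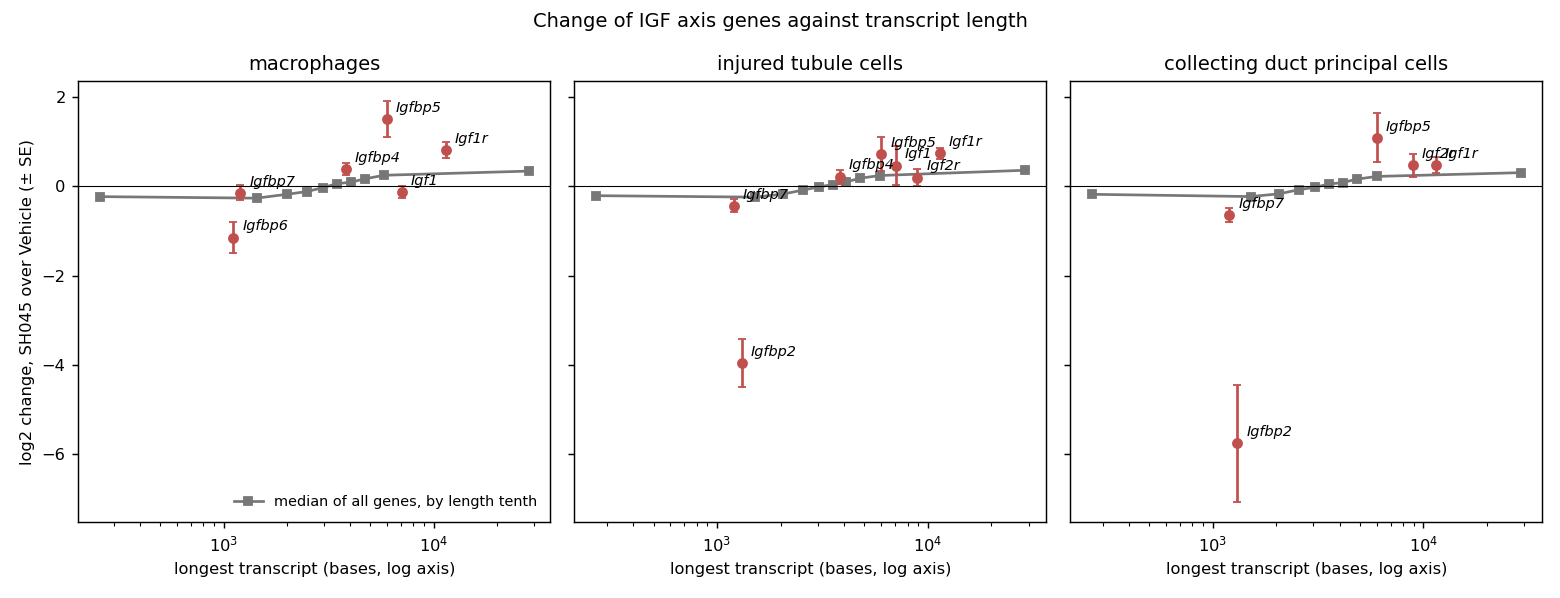
Log2 change (SH045 over Vehicle, with SE) of the fitted genes among the 9 against the length of their longest annotated transcript in bases, on a log axis, in macrophages, injured tubule and principal cells, with the median of all genes in each decile of length as a line. The line climbs with length to 0.34 in macrophages, 0.36 in injured tubule and 0.31 in principal cells; Igfbp2 lies far below it.

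Around the 9 genes, a list of 58 other genes of the pathway was tested with edgeR, with Benjamini-Hochberg adjustment over all genes of a class. Of 348 pairs of gene and class, 207 could be tested; 10 rose and 3 fell, from 10 distinct genes, against 3.17% of all tests called. The median log2 change was 0.14 for the list and 0.00 for all genes, and 0.02 for the list with the length trend removed. In fibroblasts, endothelium and proximal tubule 0 of 31, 0 of 23 and 0 of 39 passed, where 0.132, 0.278 and 0.146% of all genes did; at an unadjusted p under 0.05 there were 2, 6 and 6, and DESeq2 called 0 in each. Macrophages had 3 rises among 34 (4.93% of all genes called), injured tubule 4 rises and 1 fall among 42 (5.9%), and principal cells 3 rises and 2 falls among 38 (4.55%).

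By role, 0 of 7 tests of ligands, carriers and proteases, 0 of 26 of the growth hormone axis and 0 of 4 of IGF2 mRNA-binding proteins passed. Beside all counts by role, 3.17% of all tests were called. In macrophages, injured tubule and principal cells, which held every call of the list, 4.93, 5.9 and 4.55% of all genes were called. Igf2, the other ligand, was near absent, with 1 UMI in fibroblasts, 7 and 2 UMIs in SH045 and Vehicle endothelium, and 0 in macrophages, injured tubule, proximal tubule and principal cells. Pappa, the protease of Igfbp4, had 68.3, 52.0 and 58.3 CPM in principal cells with SH045, against 39.7, 16.5 and 63.4 CPM with Vehicle, which overlapped (edgeR adjusted p = 0.436). Ghr, the growth hormone receptor that drives Igf1 in liver, had 170, 121 and 120 CPM in proximal tubule with SH045, against 280, 193 and 177 CPM with Vehicle, apart but not called (edgeR adjusted p = 0.187).

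Of the receptors and adaptors, 3 of 48 tests rose, beside 3.17% of all tests called. Insr, the insulin receptor, had 54.6, 38.4 and 46.1 CPM in injured tubule with SH045, against 21.6, 15.0 and 29.0 CPM with Vehicle, and rose by 1.02 ± 0.22 on the log2 scale (edgeR adjusted p = 0.0105). In principal cells it had 58.0, 37.9 and 48.7 CPM with SH045, against 7.008, 24.2 and 33.3 CPM with Vehicle, and did not pass (edgeR adjusted p = 0.0642). Sos1, an exchange factor that activates RAS, rose in injured tubule (40.4, 34.9 and 39.1 CPM with SH045, against 17.4, 18.7 and 25.1 CPM with Vehicle; edgeR adjusted p = 0.024). Socs3, which restrains cytokine signalling, rose in principal cells (86.1, 69.4 and 51.6 CPM with SH045, against 39.7, 43.4 and 41.4 CPM with Vehicle; edgeR adjusted p = 0.0378).

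Among PI3K, AKT, mTOR and FOXO genes, 5 of 103 tests rose and 2 fell, beside 3.17% of all tests called. Pik3r1, the regulatory subunit of PI3-kinase, rose in macrophages (79.2, 65.0 and 74.0 CPM with SH045, against 45.3, 40.0 and 49.6 CPM with Vehicle; edgeR adjusted p = 0.0347) and in principal cells (adjusted p = 0.0393). Pik3ca, a catalytic subunit, rose in injured tubule by 0.74 ± 0.18 on the log2 scale (edgeR adjusted p = 0.0166), Tsc2, a brake on mTOR, rose in macrophages by 0.77 ± 0.20 (adjusted p = 0.0381), and Foxo3, a transcription factor that AKT holds out of the nucleus, rose in principal cells by 0.97 ± 0.28 (adjusted p = 0.0482). Eif4ebp1, a repressor of translation that mTOR switches off, fell in 2 of the 3 tubule classes tested. It had 110, 92.7 and 105 CPM in injured tubule with SH045, against 150, 141 and 152 CPM with Vehicle (edgeR adjusted p = 0.00773), and 68.8, 77.6 and 85.5 CPM in principal cells with SH045, against 120, 110 and 125 CPM with Vehicle (adjusted p = 0.0232). In proximal tubule it had 22.2, 25.7 and 29.5 CPM with SH045, against 32.1, 43.5 and 20.8 CPM with Vehicle, which overlapped (edgeR adjusted p = 0.586).

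Among proteins that share the IGFBP-type domain, 2 of 19 tests rose and 1 fell, beside 3.17% of all tests called. Crim1, a membrane protein that binds bone morphogenetic proteins, had 126, 136 and 124 CPM in injured tubule with SH045, against 82.9, 57.5 and 79.7 CPM with Vehicle (log2 change 0.76 ± 0.14, edgeR adjusted p = 0.00375), and rose in macrophages as well (adjusted p = 0.0254). Ctgf, a matricellular protein linked to fibrosis, fell in principal cells by 1.33 ± 0.32 on the log2 scale (edgeR adjusted p = 0.0234), although its 16.9, 8.51 and 14.0 CPM with SH045 overlapped the 15.2, 44.0 and 30.7 CPM with Vehicle. With the length trend removed, Socs3 (edgeR adjusted p = 0.0157) and Ctgf (adjusted p = 0.0457) in principal cells were left of the 13 calls, and Stc1 and Socs2, not called otherwise, fell in the same cells (adjusted p = 0.017 and 0.0259). Crim1 and Eif4ebp1 in injured tubule were called with any 1 library left out, and the other 11 calls ended without at least 1. The list then had 4, 11 and 6 calls without SH045 1, 2 and 3, and 11, 3 and 9 without Vehicle 1, 2 and 3.

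Over the 18 classes, the genes whose mean levels were most like each member were named from 14041 genes by Pearson's r of log2(CPM + 1); the points share libraries and depth, and r is a description. Igf1 was most like Axl (r = 0.84), Prune2 (0.82) and Dse (0.80), and Igfbp4 most like C1ra (0.85) and Htra1 (0.85). Igf1r was most like Sh3d19 (0.96), Snx7 (0.95) and Vldlr (0.95), and Igf2r most like Ryk (0.91), Camsap1 (0.90) and Atxn1 (0.90). Igfbp2 was most like Col4a6 (0.93), Gm14418 (0.87) and Sbsn (0.87), and Igfbp3 most like 3110099E03Rik (0.93), Fam181b (0.92) and Mn1 (0.92). Igfbp5 was most like Runx1t1 (0.93), Sparc (0.92) and Gng11 (0.91), Igfbp6 most like Vcan (0.90), Tgfb3 (0.88) and Ptgir (0.87), and Igfbp7 most like Cplx2 (0.98), H2afy2 (0.97) and Ttc26 (0.97).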

How the data were processed

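Single-cell RNA was measured in obstructed kidneys of 6 mice, 3 treated with SH045 and 3 with Vehicle. The authors deposited raw UMI counts per gene and barcode, aligned to mm10 per the submitters' processing notes; the aligner, the counting program and the cell-calling rule are not given in the sources used here. Barcodes needed at least 200 genes, 500 UMIs and at most 50% mitochondrial UMIs, which 2400 of 25978 failed. The 5% of cells per library with the highest Scrublet score (1178) were removed, leaving 22400. Counts were scaled to 10000 and clustered with scanpy 1.11.5 (2000 variable genes, 30 components, 15 neighbours, Leiden resolution 1.0, igraph 0.11.9) into 32 clusters. Of these, 29 were named from markers into 18 classes, and 3 with 1840 cells were left unnamed. Cells named singly got the class of their cluster in 81.0% of cases.

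UMIs were summed per library and class. A chosen 6 of the classes with at least 20 cells in every library were compared with edgeR 4.0.16. They were fibroblasts, endothelium, macrophages, injured tubule, proximal tubule and principal cells. The settings were TMM, filterByExpr defaults and a quasi-likelihood test with robust estimates (R 4.3.3) over all genes, at a Benjamini-Hochberg limit of 0.05 per class. T cells, dendritic cells, neutrophils, thick ascending limb, distal convoluted tubule and intercalated cells also had that many cells and were not fitted. The script was tested on simulated data. Alternatives were DESeq2 1.42.0 (its size factors, its test), all genes unfiltered, replicate number as a block, leaving out each library, a mitochondrial limit of 20%, no doublet removal, cells named singly, removal of a trend on transcript length, and, added after seeing the data, principal cells without their deepest cluster. At 20% mitochondrial UMIs and with cells named singly, Vehicle 2 kept 19 fibroblasts.

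The 9 genes, the lists and the classes were chosen with earlier results of these data known. The 9 genes were picked on the SH045 and Vehicle levels described here, so those levels carry no test. The text names the 9 genes, every called gene of the pathway list, Igf2, Insr, Ghr and Pappa, and the 3 genes most like each of the 9 by Pearson correlation of log2(CPM + 1) over classes; 1 of those genes is not reported here. The labels do not say whether libraries were prepared separately, so p-values measure the spread between these 6 samples. The limit given for a count of 0 covers counting error only. Contralateral kidneys and spatial samples were not analysed here.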

Additional observations from a re-analysis of the deposited data

Results flagged for a closer look

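Igf1 differed between SH045 and Vehicle in opposite directions in fibroblasts and in the cluster named neutrophils. The mean level in fibroblasts was 6.93 times as high with SH045 as with Vehicle, and every SH045 library lay above every Vehicle library. In the cluster named neutrophils the mean level with SH045 was 0.384 times that with Vehicle, and every SH045 library lay below every Vehicle library. The difference between these 2 cell classes was not tested. Beside it, summed neutrophil markers in that cluster were 17140, 23240 and 4503 CPM with SH045, against 4882, 1124 and 1671 CPM with Vehicle, so it is not shown to be 1 cell type. Its macrophage markers were 7768, 10180 and 10330 CPM with SH045, against 11860, 14860 and 11110 CPM with Vehicle, and their part in the result was not tested.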

How the results depend on the processing

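The number of genes called per class moved with the processing. With the length trend removed, 4 genes were called in fibroblasts in place of 8, 122 in macrophages in place of 533, 135 in injured tubule in place of 626, and 4 pairs of the pathway list in place of 13. It left the higher share of calls at 40.2% in macrophages (55.0% otherwise), 36.3% in injured tubule (49.7%), 68.4% in endothelium (57.1%), 25% in proximal tubule (14.3%) and 25% in the pathway list (76.9%). Without the low-count filter there were 157 calls in fibroblasts, 84 in endothelium, 936 in macrophages, 123 in proximal tubule, 707 in principal cells and 21 in the pathway list, against 14, 14 and 465 with it in endothelium, proximal tubule and principal cells. A replicate block gave 32 calls in fibroblasts, 74 in endothelium, 297 in macrophages, 59 in proximal tubule, 132 in principal cells and 7 in the pathway list; deviations of same-numbered libraries correlated between -0.156 and 0.124, so the numbers are not taken as pairs. The DESeq2 test called 42 genes in fibroblasts, 23 in endothelium and 35 in proximal tubule. Cells named singly gave 4 in endothelium, 114 in injured tubule, 217 in principal cells, 7 in the pathway list and 0 in proximal tubule, where edgeR gave 1111 genes at an unadjusted p under 0.05. Without doublet removal there were 30 in endothelium and 26 in proximal tubule, and a 20% mitochondrial limit left 6 in proximal tubule. The causes were not tested.

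Leaving out 1 library at a time gave 0 (without Vehicle 1, with 576 genes at an unadjusted edgeR p under 0.05) to 77 calls in fibroblasts, 0 (without SH045 2 or SH045 3, with 568 and 417 such genes) to 47 in endothelium, 11 to 775 in macrophages, 175 to 581 in injured tubule, 5 to 43 in proximal tubule, 220 to 431 in principal cells and 3 to 11 in the pathway list. Of the 9 genes, 25 of 38 fitted pairs of gene and class had a log2 change above 0, and 23 to 26 did with 1 library left out. Of their 532 alternative values, 23 in 8 pairs had the other sign: Igfbp3 in fibroblasts and endothelium, Igf1r and Igfbp5 in endothelium, Igfbp7 in macrophages and proximal tubule, and Igf2r in injured and proximal tubule, all with main values between -0.14 and 0.20. The log2 change of Igfbp2 in injured tubule was -2.48 with cells named singly, in place of -3.96. Insr in fibroblasts reversed to a log2 change of -0.0814 without Vehicle 3, where leaving out 1 library gave up to 0.5897, and Ghr in principal cells to -0.0108 with the length trend removed and -0.0438 without SH045 2, where leaving out 1 library gave up to 0.2217; none of these was called. Fibroblast and endothelial values of the Vehicle libraries rest on 20 to 37 cells, which limits what their depth can show.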
